A study of Mus musculus with 8 samples.

Results

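Trp63, Sox9, Sox10, Sox11, Runx1 and Xbp1 are 6 genes for transcription factors tied to cell lineages of the mammary epithelium. They were chosen by symbol, and each had 1 row among the 14883 gene rows measured. The data are transcript counts of single cells from the mammary gland of mice of 5 weeks, an age in puberty. Ducts were micro-dissected together with terminal end buds, which are their growing tips. Live cells were sorted into wells and read by SORT-seq, in which robots carry out the CEL-seq2 protocol and each messenger RNA molecule is counted once, at its 3′ end. The 8 libraries of 96 wells are libraries 1 to 4 of plate 2 and libraries 1 to 4 of plate 1. Their strain is given as mixed, no treatment is named, and which library came from ducts, from end buds or from which animal is not given in the sources used here. Libraries were taken as the samples, so p-values cover the spread from library to library and no more, and that spread may be technical.

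The mammary duct has an outer basal layer of contractile cells and an inner luminal layer, which holds hormone-sensing cells, with receptors for estrogen and progesterone, and secretory cells, the precursors of milk-producing cells. Trp63 encodes p63, a relative of p53 that maintains the basal layer of stratified and glandular epithelia. Sox9, Sox10 and Sox11 encode factors with a DNA-binding HMG box: Sox9 and Sox10, of the same subgroup, are known in glandular progenitor cells, Sox10 also in glial cells, and Sox11 in embryonic and developing tissues. Runx1 encodes a DNA-binding subunit that works in a pair with the protein of Cbfb. Xbp1 encodes the factor of the unfolded protein response, which raises the capacity of the endoplasmic reticulum and is needed by secreting cells.

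In GRCm38.p6, the RefSeq assembly that corresponds to mm10, Trp63 lies at chr16:25683763-25892088, Sox9 at chr11:112782210-112787757, Sox10 at chr15:79154913-79164490, Sox11 at chr12:27334268-27342718, Runx1 at chr16:92601466-92826074 and Xbp1 at chr11:5520641-5525993. All are protein-coding genes. Trp63 and Runx1 hold smaller genes within their spans, a small nuclear RNA and a processed pseudogene in Trp63 and an antisense gene in Runx1, none of which is a row of the table. Counting at the 3′ end does not separate the isoforms of Trp63 or the 2 promoters of Runx1. RefSeq promoters of 300 bases, 250 before and 50 after the start, were at hand for Sox11, Runx1 and Xbp1. Those of Sox11, a gene counted here in basal cells and in no luminal cell, and of Runx1, which starts from a distal and a proximal promoter, are shown 5′ to 3′. The Sox11 promoter is at chr12:27342669-27342968, the distal Runx1 promoter at chr16:92826025-92826324 and the proximal one at chr16:92697280-92697579, all on the minus strand. Capitals mark matches, on either strand, to the CCAAT box, to the Runx letters TGTGGT, to the Sox letters ACAAT or to the Xbp1 letters ACGTG.
Sox11 promoter: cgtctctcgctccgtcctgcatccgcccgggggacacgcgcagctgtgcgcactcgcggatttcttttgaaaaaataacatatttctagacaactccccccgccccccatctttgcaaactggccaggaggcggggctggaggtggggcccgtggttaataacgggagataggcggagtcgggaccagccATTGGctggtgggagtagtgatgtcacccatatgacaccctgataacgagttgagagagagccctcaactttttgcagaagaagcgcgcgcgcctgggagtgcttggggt
Runx1 distal promoter: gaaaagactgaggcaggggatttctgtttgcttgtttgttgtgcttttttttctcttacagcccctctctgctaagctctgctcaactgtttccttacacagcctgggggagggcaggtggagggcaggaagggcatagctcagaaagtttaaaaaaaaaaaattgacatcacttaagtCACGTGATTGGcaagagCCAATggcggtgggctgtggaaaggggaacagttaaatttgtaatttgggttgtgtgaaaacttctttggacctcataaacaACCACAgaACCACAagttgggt
Runx1 proximal promoter: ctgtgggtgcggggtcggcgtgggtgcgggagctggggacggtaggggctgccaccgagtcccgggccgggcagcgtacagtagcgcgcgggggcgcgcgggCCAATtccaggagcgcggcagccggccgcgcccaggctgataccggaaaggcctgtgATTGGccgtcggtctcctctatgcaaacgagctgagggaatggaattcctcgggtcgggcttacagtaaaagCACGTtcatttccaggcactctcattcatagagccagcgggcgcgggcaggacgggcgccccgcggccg

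The distal Runx1 promoter held 2 matches to the Runx letters, both downstream of the start and both in the inverted form ACCACA, at bases 279 to 284 and 287 to 292. Of 32851 RefSeq promoters of the same length, 16.8% held the Runx letters at least once. It also held CACGTG at bases 180 to 185, which is a match to ACGTG on both strands, and a CCAAT box on each strand at bases 186 to 190 and 197 to 201. The proximal Runx1 promoter held 1 match to ACGTG, which 19.6% of promoters hold, and 2 to CCAAT, which 37.4% hold. The Sox11 promoter held 1 inverted CCAAT box, ATTGG at bases 191 to 195. The Sox letters ACAAT, present in 31.0% of promoters, were in none of the promoters of Sox11, Runx1 and Xbp1. The Xbp1 promoter held none of the marked letters. A match describes these letters and is no evidence of binding.

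Of 768 wells, 114 were kept as cells, each with at least 1500 transcripts and 500 genes. A cell was called basal where transcripts of the contractile genes Acta2, Tagln and Myl9 together exceeded those of the luminal keratins Krt8, Krt18 and Krt19, and luminal in the reverse case. A luminal cell was called hormone-sensing where Prlr exceeded Trf, and secretory otherwise. This gave 66 basal, 14 hormone-sensing and 28 secretory cells, with median depths of 13450.5, 17924 and 7102.5 transcripts, and 6 cells in which the 2 triplets tied. By level, markers the rule did not use followed the names, but several were also found outside their class. Krt5 and Krt14 were counted 610 and 316 times in basal cells and not once in luminal cells, Foxa1 had 8.15 transcripts per 10000 in hormone-sensing and 0.438 in secretory cells, and Lalba had 0.0889 in hormone-sensing and 15.1 in secretory cells. No basal cell held a Cldn3 or Cldn7 transcript. The luminal markers Epcam and Cdh1, however, were found in 51.5% and 50% of basal cells, at 1.03 and 0.757 per 10000. The secretory markers Csn3 and Mfge8 had 5.27 and 4.83 per 10000 in basal cells and 1.01 and 0.770 in hormone-sensing cells. Oxtr, a basal marker, was found in 35.7% of secretory cells. Krt7, a luminal marker, had 8.09 per 10000 in hormone-sensing and 0.741 in secretory cells.

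The classes were split by library. Basal cells came from libraries 2 and 4 apart from 2 cells, and luminal cells from libraries 1 and 3 alone, so in comparisons of basal with luminal cells the class and the library cannot be told apart. Hormone-sensing and secretory cells came from the same libraries. A marker list of another cell type outweighed both triplets in 15 of the 114 cells, all on plate 1: 8 basal, 1 secretory and all 6 tied cells. The 8 basal cells held 1 to 15 transcripts of the contractile triplet each. They were 5 of the 8 basal cells of plate 1 library 2, 2 of the 7 of plate 1 library 4, and the only one of plate 1 library 3. In these 8 cells Fabp4 was counted 255 times while Adipoq and Plin1 were at 0, the endothelial genes Kdr and Cdh5 were found in 7 and 5 cells, and 1 cell carried Schwann cell genes such as Mbp and Ncam1, with 29 and 27 transcripts. None of the 8 held a Trp63, Sox11 or Runx1 transcript. Of the 67 well numbers among kept cells, 37 recurred in 2 or more libraries, and no 2 kept cells were identical.

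Transcripts were summed over the cells of a class in a library and tested with edgeR's quasi-likelihood method, with Benjamini-Hochberg adjustment over all tested genes and a threshold of 0.05. Between 4 basal and 4 luminal sums, 14.6% of 3412 genes were called. Among the 6 factors, Trp63 and Sox11 rose in basal cells, Sox9 and Xbp1 fell, and Runx1 and Sox10 did not pass. Against hormone-sensing cells, where 24.5% of 2567 genes were called, basal cells were higher in Trp63, Sox11 and Sox10 and lower in Sox9 and Xbp1. Against secretory cells, where 16.2% of 1844 genes were called, they were higher in Trp63 and Sox11 and lower in Sox9 and Xbp1. Between hormone-sensing and secretory cells of the same 3 libraries, where 13% of 1801 genes were called, Sox10 was the 1 factor of 4 tested that differed.

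**Figure D1:**
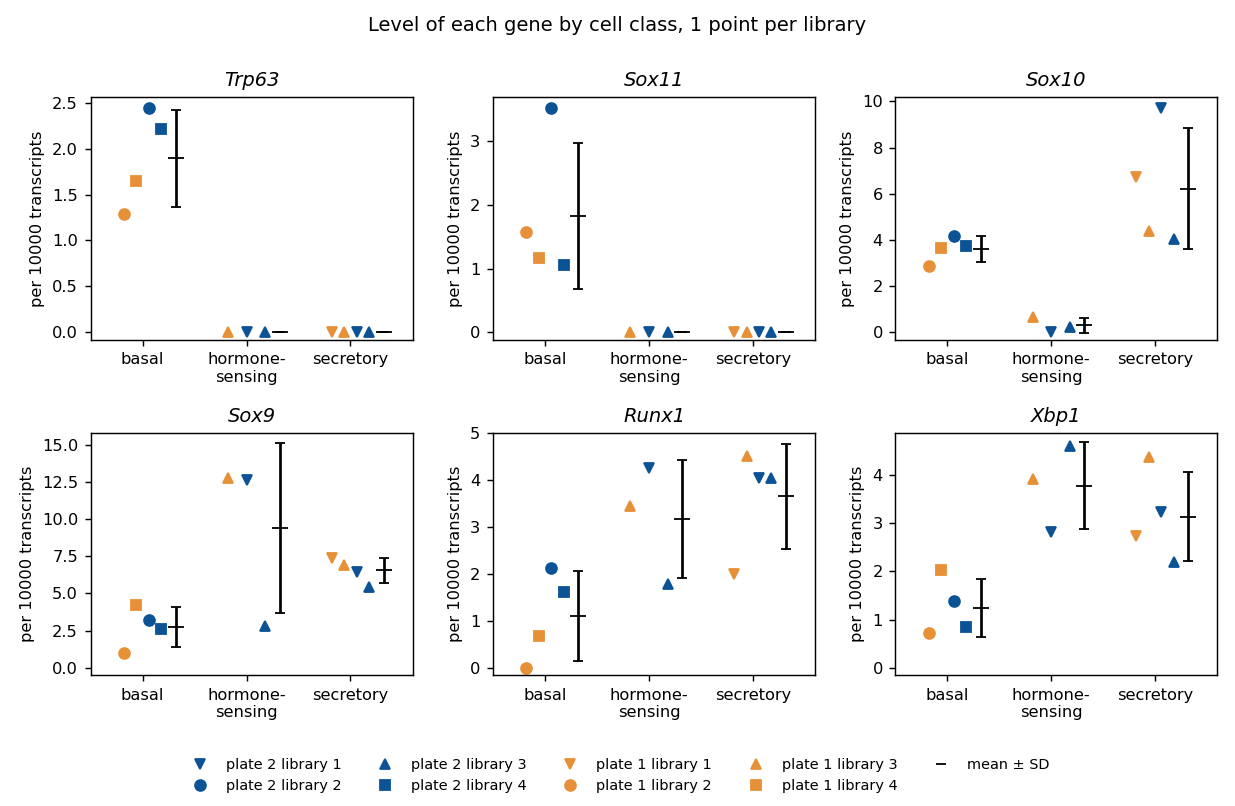
Transcripts of each factor per 10000 transcripts of all genes (y axis) in basal, hormone-sensing and secretory cells, 1 point per library with at least 5 basal or 3 luminal cells of the class, blue for plate 2 and orange for plate 1. The black mark is the mean over libraries and its bar the SD. Trp63 and Sox11 lie at 0 in every luminal library, and Sox10 is at or below 0.652 in the hormone-sensing sums and at or above 2.86 in the others.

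Among the kept cells, Trp63 was counted in basal cells alone. Its level was 2.44 and 2.22 transcripts per 10000 in libraries 2 and 4 of plate 2, and 1.28 and 1.64 in libraries 2 and 4 of plate 1. These levels rest on 143, 78, 9 and 17 transcripts. The mean was 1.89 ± 0.527 (SD, n = 4 libraries), and no transcript was found in any of the 14 hormone-sensing or 28 secretory cells. Plate 1 library 2 was the lowest, and without its cells led by another marker list it stood at 2.26. The basal level was at least 47.0-fold higher than the luminal one, taking a floor of 3 transcripts over the luminal libraries, and at least 24.5-fold and 22.0-fold higher than in hormone-sensing and secretory cells by themselves. The edgeR adjusted p was 4.34e-05 against luminal, 9.77e-05 against hormone-sensing and 6.73e-05 against secretory sums, with every basal library above every luminal one. With no luminal transcript, Trp63 passed the filter through its basal sums alone and was bound to differ, so these p-values add no support. Between hormone-sensing and secretory cells there was nothing to test.

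Trp63 was found in 49 of 66 basal cells, 74.2% with an exact 95% interval of 62.0% to 84.2%, which covers counting error only, as do all such intervals here. It was found in 0 of 42 luminal cells, for which the exact 95% interval allows a share of up to 8.41% with a counted transcript. This limits neither the cells that express the gene nor those with transcripts below detection at these depths. The median depths were 13450.5 transcripts in basal and 9508 in luminal cells. With every cell thinned to 1500 transcripts, 23.6% of basal cells would be expected to show Trp63, and 0% of luminal cells. In the 58 basal cells not led by another list the share was 84.5%, and in the 37 of 10000 or more transcripts 36 held it.

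Sox11 was likewise confined to basal cells in the kept wells, and it varied more between libraries. Its level was 3.51 and 1.05 transcripts per 10000 in libraries 2 and 4 of plate 2, and 1.57 and 1.16 in libraries 2 and 4 of plate 1, from 206, 37, 11 and 12 transcripts. Plate 2 library 2 stood apart from the other 3, and all 11 transcripts of plate 1 library 2 came from 1 cell. The mean was 1.82 ± 1.15 (SD, n = 4 libraries), against 0 in every hormone-sensing and secretory sum. The basal level was at least 50.6-fold higher than the luminal one, and at least 26.4-fold and 23.7-fold higher than in hormone-sensing and secretory cells (edgeR adjusted p = 3.31e-04, 7.53e-04 and 5.95e-04 in that order). Without plate 2 library 2 these bounds were 24.2-fold, 12.6-fold and 11.3-fold, from 60 basal transcripts. The edgeR filter then left Sox11 untested against secretory cells, as it did without plate 1 library 4 and without the cells led by another list in sums of at least 3 cells. Where Sox11 was tested, it too passed the filter through its basal sums alone and was bound to differ, so its p-values add no support. Sox11 was found in 43 of 66 basal cells, 65.2% (exact 95% interval 52.4% to 76.5%), and in 0 of 42 luminal cells, again up to 8.41%. At 1500 transcripts per cell the expected basal share was 26.0%. The 1 basal cell of plate 2 library 1, a shallow cell of 2404 transcripts outside the tests, held 3 Sox11 transcripts.

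Sox10 separated the luminal classes from each other. In hormone-sensing cells its level was 0 and 0.255 transcripts per 10000 in libraries 1 and 3 of plate 2 and 0.652 in library 3 of plate 1. In secretory cells it was 9.69 and 4.03 in libraries 1 and 3 of plate 2, and 6.74 and 4.37 in libraries 1 and 3 of plate 1. The hormone-sensing mean was 0.302 ± 0.329 (SD, n = 3) and the secretory mean 6.21 ± 2.62 (SD, n = 4). The hormone-sensing level was lower in 3 of 3 paired libraries, and the highest hormone-sensing value was far below the lowest secretory one. With the library as a block, the change was -4.41 ± 0.70 on the log2 scale, from 9 transcripts in hormone-sensing and 91 in secretory cells (edgeR adjusted p = 1.21e-08, 3 pairs). The p of this fit draws on the spread of all tested genes, and does not measure that of Sox10 over 3 pairs alone. Over the pooled counts of those libraries the ratio was 0.0602, with a 95% counting interval of 0.0267 to 0.119. The adjusted p moved widely with the fit. By edgeR it was 1.05e-05 with RLE normalization, 0.0011 without the library block and 0.0496 with cells of 3000 or more transcripts. DESeq2 gave an adjusted p of 7.1e-06. Without plate 2 library 1 the change was -3.39 and the edgeR adjusted p 0.0526, the highest of 12 alternatives, of which 11 passed. In that library the secretory sum held 3 cells, and 10 of its 12 Sox10 transcripts were in 1 of them.

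Basal cells had Sox10 levels of 4.17 and 3.72 per 10000 in libraries 2 and 4 of plate 2 and of 2.86 and 3.67 in libraries 2 and 4 of plate 1, a mean of 3.61 ± 0.549 (SD, n = 4). Every basal library was above every hormone-sensing one, by 3.74 ± 0.59 on the log2 scale (edgeR adjusted p = 4.45e-04). The basal and secretory levels overlapped, and their difference of -0.67 ± 0.33 did not pass (adjusted p = 0.196). Against all luminal cells the change was 0.31 ± 0.47 (adjusted p = 0.743). From low to high, the order was hormone-sensing, basal and secretory, of which basal and secretory did not differ beyond their spread. The cell with Schwann cell genes held 11 of the 20 Sox10 transcripts of plate 1 library 2. Without the cells led by another list that library stood at 2.26 per 10000. Sox10 was found in 84.8% of basal, 35.7% of hormone-sensing and 92.9% of secretory cells, and at 1500 transcripts per cell these shares were 38.6%, 8.63% and 52.3%.

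**Figure D2:**
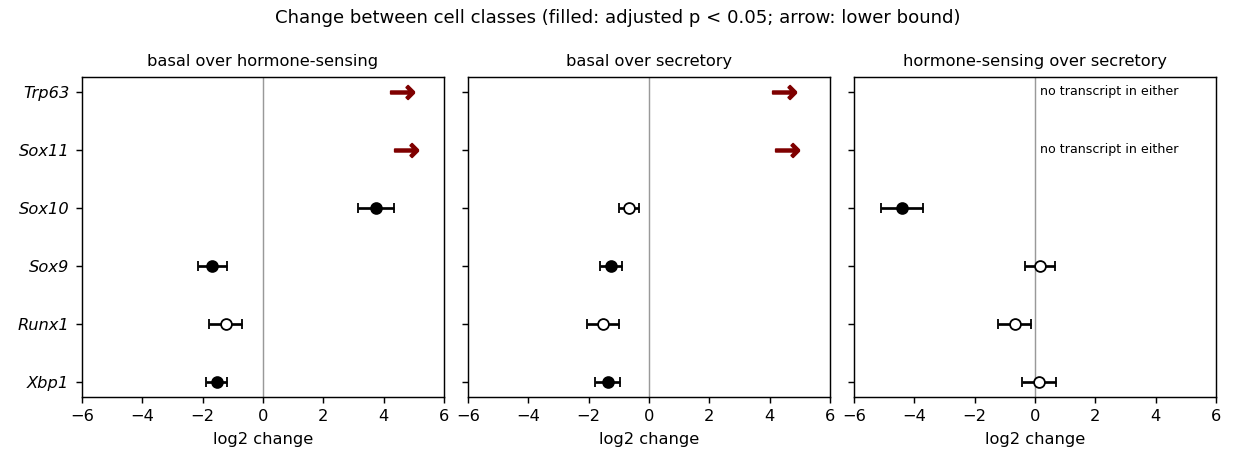
Change of each factor on the log2 scale (x axis) between basal and hormone-sensing, basal and secretory, and hormone-sensing and secretory cells, with bars of 1 SE. Filled points passed the adjusted p of 0.05, and arrows show lower bounds of 4.62, 4.72, 4.46 and 4.56 for Trp63 and Sox11, whose luminal counts were 0. Sox10 lies at 3.74 in the first panel and at -4.41 in the last, both of which show its lower level in hormone-sensing cells.

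Sox9 was found in all 3 classes and was lower in basal cells. The basal level was 3.20 and 2.59 transcripts per 10000 in libraries 2 and 4 of plate 2, and 0.999 and 4.25 in libraries 2 and 4 of plate 1. In hormone-sensing cells it was 12.6 and 2.81 in libraries 1 and 3 of plate 2 and 12.8 in library 3 of plate 1. In secretory cells it was 6.46 and 5.44 in libraries 1 and 3 of plate 2 and 7.37 and 6.89 in libraries 1 and 3 of plate 1. Basal cells lay below every secretory library and overlapped the lowest hormone-sensing one. The means were 2.76 ± 1.36 (SD, n = 4) in basal, 9.39 ± 5.70 (SD, n = 3) in hormone-sensing and 6.54 ± 0.824 (SD, n = 4) in secretory cells.

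The Sox9 change in basal against luminal cells was -1.63 ± 0.38 on the log2 scale, a ratio of 0.323 (edgeR adjusted p = 0.0103), with no overlap between the 4 basal and 4 luminal sums. It was -1.45 on plate 2 alone and -1.81 on plate 1 alone, with adjusted p of 0.0622 and 0.195, where the alternatives together ran from 3.67e-04 to 0.195. The changes against hormone-sensing and secretory cells were -1.69 ± 0.48 and -1.26 ± 0.38 (adjusted p = 0.0217 and 0.0293). The first lost its call without library 1, 2 or 4 of plate 2 or library 3 of plate 1, with adjusted p between 0.0630 and 0.126. The second lost it without library 2 or 4 of plate 2 or library 1 or 3 of plate 1, between 0.0553 and 0.114. Hormone-sensing and secretory cells differed by 0.17 ± 0.50 (adjusted p = 0.911), so their order is not resolved. In 2 hormone-sensing sums a single cell held 103 Sox9 transcripts, of 184 in library 1 of plate 2 and of 137 in library 3 of plate 1.

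Runx1 was found in all 3 classes, with the lowest levels in basal cells. The basal level was 2.11 and 1.62 transcripts per 10000 in libraries 2 and 4 of plate 2, and 0 and 0.676 in libraries 2 and 4 of plate 1. In hormone-sensing cells it was 4.25 and 1.79 in libraries 1 and 3 of plate 2 and 3.45 in library 3 of plate 1. In secretory cells it was 4.04 and 4.03 in libraries 1 and 3 of plate 2 and 2.00 and 4.51 in libraries 1 and 3 of plate 1. Both luminal classes overlapped the highest basal library. The change in basal against luminal cells was -1.39 ± 0.51 on the log2 scale and missed the threshold (edgeR adjusted p = 0.0921), as did those against hormone-sensing (-1.24 ± 0.55, adjusted p = 0.135) and secretory cells (-1.52 ± 0.53, adjusted p = 0.0645). It passed in 4 of 21 alternative fits of the first comparison, among them the one without cells led by another list (-1.09, adjusted p = 0.0476) and the one with the plate as a covariate (-1.64, adjusted p = 0.0397), with adjusted p from 0.0172 to 0.227 over all 21. Hormone-sensing and secretory cells differed by -0.67 ± 0.55 (adjusted p = 0.551). Cbfb, which encodes the partner subunit, changed by -0.49 ± 0.57 between basal and luminal cells (adjusted p = 0.659).

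Xbp1 was lower in basal cells than in both luminal classes. The basal level was 1.38 and 0.853 transcripts per 10000 in libraries 2 and 4 of plate 2, and 0.714 and 2.03 in libraries 2 and 4 of plate 1. In hormone-sensing cells it was 2.81 and 4.59 in libraries 1 and 3 of plate 2 and 3.91 in library 3 of plate 1. In secretory cells it was 3.23 and 2.19 in libraries 1 and 3 of plate 2 and 2.74 and 4.37 in libraries 1 and 3 of plate 1. Every luminal value was above every basal one. The change in basal against luminal cells was -1.36 ± 0.33 on the log2 scale, a ratio of 0.388 (edgeR adjusted p = 0.0127). It was -1.54 ± 0.36 against hormone-sensing and -1.37 ± 0.40 against secretory cells (adjusted p = 0.00679 and 0.0264). The luminal classes differed by 0.14 ± 0.56 (adjusted p = 0.944). The call against luminal cells was lost without library 4 of plate 2 (adjusted p = 0.0660) and on plate 1 alone (0.365), the highest of the alternatives, whose lowest was 0.00149. That against secretory cells was lost without library 2 or 4 of plate 2 or library 3 of plate 1 (0.0720, 0.124 and 0.0989).

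**Figure D3:**
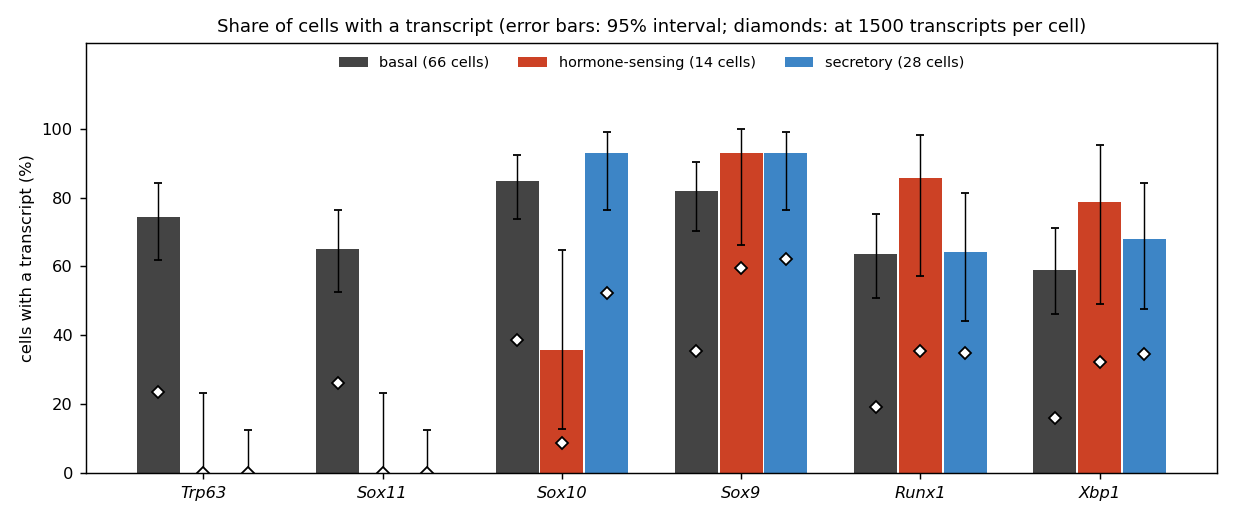
Share of cells with at least 1 transcript of each factor (y axis, percent) among basal, hormone-sensing and secretory cells, with exact 95% intervals as error bars. Diamonds give the share expected with each cell thinned to 1500 transcripts, at which Sox10 was expected in 38.6%, 8.63% and 52.3% of the 3 classes. Trp63 and Sox11 have no luminal bar.

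Genes tied to these factors were read from lists chosen by textbook role. Of 25 p63-linked genes of basal epithelium, 14 could be tested between basal and luminal cells, of which 9 rose, 0 fell and 5 did not pass, with a median change of 2.41 against -0.00260 for all tested genes, of which 14.6% were called. Against hormone-sensing cells 12 of 17 rose, where 24.5% of all tested genes were called, and against secretory cells 5 of 8, where 16.2% were. Of the 17, 7 were at 0 in one of the groups. The basal keratin genes Krt5 and Krt14, each at 0 in luminal cells, were at least 116-fold and 60.1-fold higher. Igfbp3, which encodes a binding protein of insulin-like growth factors, was counted 403 times in basal cells and once in luminal cells, and Cdh3, which encodes P-cadherin, 201 times and once. Dst and Sfn, at 1.12 and 1.13 on the log2 scale, did not pass. A gene kept by the filter through its basal sums alone had to differ, so these counts describe the lists.

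Of the p53 relatives, Trp53 did not pass between basal and luminal cells (0.34 ± 0.33, adjusted p = 0.583). Cdkn1a, a target of the p53 family that halts the cell cycle, changed by 0.98 ± 0.53 (adjusted p = 0.276) and rose in basal against secretory cells by 2.11 ± 0.67 (adjusted p = 0.0423). Among the other Sox genes, 1 of 12 in the table was tested. This was Sox4, at -1.30 ± 0.43 (adjusted p = 0.0618), with 150 transcripts in basal and 218 in luminal cells. Among 20 factors of the basal lineage, 4 of 5 tested rose, where 14.6% of all tested genes were called: Id4, at 466 transcripts in basal and 0 in luminal cells and so at least 88.6-fold higher, Tcf7l1 by 4.35, Egr2 by 2.86 and Srf by 1.62. Id4 passed the filter through its basal sums alone and had to differ, and Tcf7l1 had 204 and 6 transcripts, so this count describes the list. Nfib, a nuclear factor I gene of that list, did not pass (0.30, adjusted p = 0.628). In hormone-sensing against secretory cells, where Sox10 fell, Nfib changed by -2.53 ± 0.42 on the log2 scale (adjusted p = 5.63e-08). That p is from the same fit as for Sox10 and has the same limit.

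Among 20 factors of the luminal lineage, 7 were tested between basal and luminal cells and 4 were called, against 14.6% of all tested genes. Elf3, Pgr and Gata3 fell, with changes of -4.41, -3.67 and -2.33 on the log2 scale, and Tfap2c rose by 2.08. Tfap2c had 472 transcripts in basal and 1 in hormone-sensing cells. Between basal and secretory cells its change of 0.92 ± 0.42 did not pass (edgeR adjusted p = 0.164). Between hormone-sensing and secretory cells 3 of 12 rose and 5 fell, where 13% of all tested genes were called. Pgr, the progesterone receptor, rose by 4.97. Elf5, a driver of the secretory lineage, was counted 3 times in hormone-sensing and 100 times in secretory cells, a ratio of 0.0183 (counting interval 0.0037 to 0.0549). Tfap2c had 1 and 42 transcripts, and Foxi1, at 0 in hormone-sensing and 50 in secretory cells, was at least 27.4-fold lower. A gene kept by the filter through its secretory sums alone, such as Foxi1, had to differ, so these counts describe the list.

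Of 25 genes of the endoplasmic reticulum linked to Xbp1, 17 were tested between basal and luminal cells, of which 1 fell and 16 did not pass, with a median change of -0.04 on the log2 scale. The share called was 14.6% over all tested genes. The one that fell was Dnajc3, a co-chaperone (-1.30 ± 0.31, adjusted p = 0.0104). Hspa5 and Hsp90b1, the most abundant chaperones of the list, stood at 0.06 ± 0.27 and -0.04 ± 0.28 (adjusted p = 0.924 and 0.954). In hormone-sensing against secretory cells these chaperones stood at 0.64 ± 0.44 and 0.43 ± 0.50 (adjusted p = 0.443 and 0.719). Of 10 glial or Sox10 target genes, Cryab alone could be tested between basal and luminal cells. It rose by 2.32 ± 0.59 in basal cells (adjusted p = 0.0158), with 228 and 30 transcripts. Against hormone-sensing cells Cryab rose by 5.33 ± 0.70 (edgeR adjusted p = 1.20e-04). Its change of 1.32 ± 0.52 against secretory cells did not pass (edgeR adjusted p = 0.0979). Among the Schwann cell markers, Cdh19 was at 0 in the 58 basal cells not led by another list and in all luminal cells, and the most counted, Mbp, had 33 transcripts in these basal cells and 32 in luminal cells, while Sox10 was found in 54 of the 58 and in 31 of the 42.

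From cell to cell within the basal class, Sox11 and Trp63 were found together in 37 of 66 cells. A further 6 cells held Sox11 only, 12 held Trp63 only and 11 held neither. Depth differed between these sets. The median was 22884 transcripts in cells with both, 2416.5 with Sox11 only, 6985.5 with Trp63 only and 3283 with neither, and 8 of the 11 with neither were the cells led by another list. Of the 37 basal cells with at least 10000 transcripts, 32 held both genes, 4 held Trp63 only, none held Sox11 only and 1, the cell with Schwann cell genes, held neither. In these deep cells all 37 held Sox10, 35 Sox9, 32 Runx1 and 28 Xbp1.

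**Figure D4:**
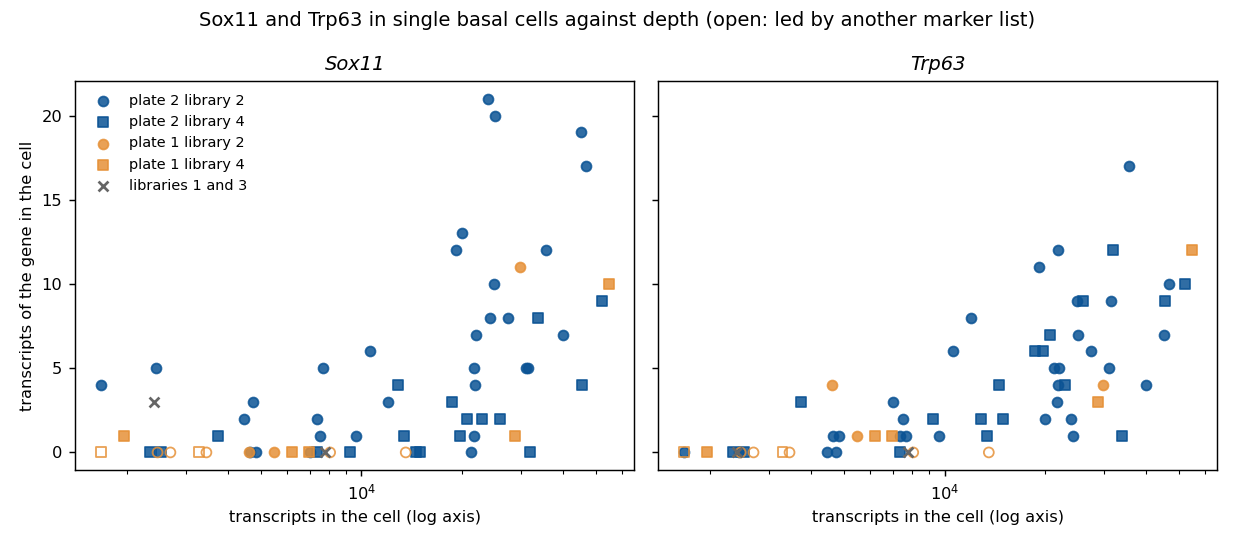
Transcripts of Sox11 and of Trp63 (y axes) in each of the 66 basal cells against the transcripts of all genes in the cell (x axis, log scale), by library. Open symbols on plate 1 are cells led by another marker list, all at 0, and the 6 cells with Sox11 but no Trp63 all lie at the shallow end, between 1664 and 4729 transcripts.

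Over the deep basal cells Sox11 ran from 0 to 8.81 transcripts per 10000 with a median of 1.83, and its coefficient of variation was 91.2%, where counting alone would give 42.7%. Trp63 ran from 0 to 6.68 with a median of 2.14 and a coefficient of variation of 66.5%, against 44.1% from counting. The only deep cell at 0 for Trp63 was the one with Schwann cell genes, and without it Trp63 ran from 0.296 to 6.68 with a coefficient of 63.5%, and that of Sox11 was 88.4%. The Sox11 level of these cells differed between libraries. In deep cells of plate 2 library 2 (20 cells) the Sox11 median was 3.24 per 10000 and the coefficient 66.1%, against a counting value of 35.4%. In those of plate 2 library 4 (13 cells) the median was 0.874 and the coefficient 90.1%, against 66.1%. The Trp63 medians of the same cells were 2.23 and 1.98, with coefficients of 66.8% and 49.3%. Runx1 had the widest spread of the 6 factors in the 37 deep cells, with a coefficient of 117% against 52.0% from counting, and Sox9 the narrowest, with 61.2% against 39.2%.

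Over the 37 deep basal cells the levels of Sox11 and Trp63 had a Spearman correlation of 0.01. It was 0.04 over all 66 basal cells and -0.21 over the 58 not led by another list, since the other 8 are at 0 for both genes. It was -0.37 over the 31 cells of plate 2 library 2 and 0.26 over the 18 of plate 2 library 4. In deep cells of these 2 libraries it was -0.08 and -0.28. Cells of a library share its depth and preparation, so these values are descriptions. Among the other pairs over the deep cells, Trp63 with Runx1 (0.38) and Sox11 with Xbp1 (0.38) had the highest correlations and Trp63 with Sox10 the lowest (-0.22). The Sox11 and Xbp1 value was 0.02 over all basal cells and 0.01 over the 58 not led by another list. That of Trp63 and Runx1 was 0.51 and 0.36, the first of which includes the 8 cells at 0 for both.

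**Figure D5:**
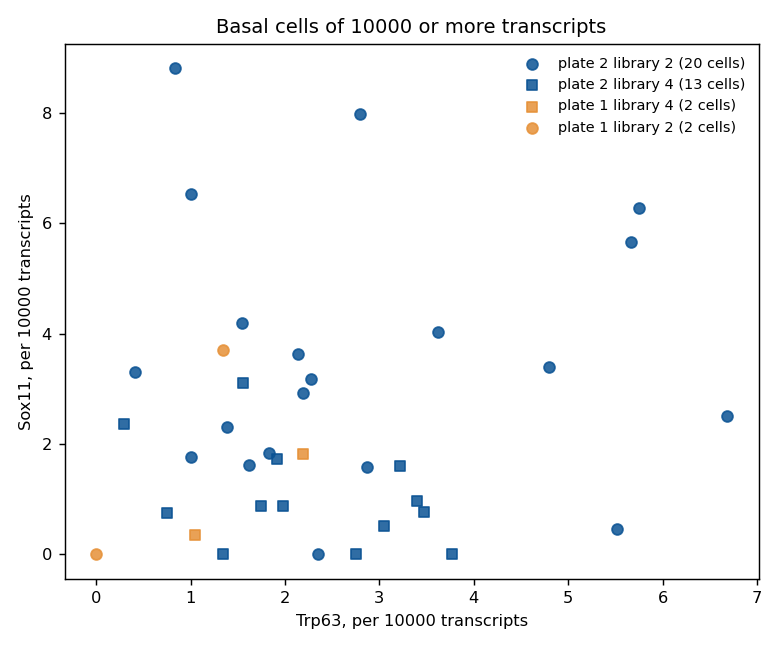
Sox11 (y axis) against Trp63 (x axis), both per 10000 transcripts, in the 37 basal cells of at least 10000 transcripts, by library. The Spearman correlation is 0.01. Cells of plate 2 library 4 lie at or below 3.12 on the Sox11 axis, while those of plate 2 library 2 reach 8.81.

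The basal cells of the 2 plates were compared as the group the labels give, with 2 libraries each. No gene of 4663 was called by edgeR, so the share called was 0%, while 388 had an unadjusted p under 0.05 and DESeq2 called 21. The changes of Trp63, Sox11, Sox10, Sox9 and Xbp1 were 0.67 ± 0.38, 0.80 ± 0.63, 0.28 ± 0.34, 0.10 ± 0.55 and -0.33 ± 0.52 on the log2 scale, with adjusted p of at least 0.656. Runx1 changed most, by 2.26 ± 0.72 from 181 transcripts on plate 2 and 7 on plate 1 (adjusted p = 0.538, unadjusted p = 0.0141). All 7 came from library 4 of plate 1. The basal cells led by another marker list, all on plate 1, held no Runx1, and without them its level there was 0.710 per 10000 in library 4 and still 0 in library 2. Whether the change between basal and luminal cells differed between plates was tested as an interaction in edgeR. Runx1 had the smallest unadjusted p of the 4 factors that could be estimated, 0.0463, with an adjusted p of 0.929, and no gene of 3412 was called while 172 had an unadjusted p under 0.05.

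Over the 11 sums of a class in a library with at least 3 cells, the genes whose log2 CPM was most like each factor were picked from 2942 by Pearson correlation. For Trp63 they were Col18a1, Fbn1 and Spon2, each at 1.00, and for Sox11 they were Zfhx4, Fam65b and Csrp2, each at 0.99, values that a gene at 0 in all luminal sums reaches easily. For Sox10 they were Nfib (0.97), Gas6 (0.95) and Igfbp5 (0.95). For Sox9 they were Prdx1 (0.91), Rpl18 (0.87) and Irx2 (0.86), for Runx1 Polr1d, Tial1 and Dsg2 (each 0.93), and for Xbp1 Ly6e (0.89), Epcam (0.89) and Me1 (0.87). Within the 66 basal cells, over 6640 genes, Sox11 was most like Prdx2, Pcsk6, Serpinb11, Vcan and Ganab, with Spearman correlations of 0.60, 0.58, 0.57, 0.52 and 0.52. In the 37 deep cells these values were 0.33, 0.50, 0.39, 0.47 and 0.35. That of Vcan was 0.71 in plate 2 library 2 and 0.18 in plate 2 library 4, and that of Ganab 0.01 and 0.57. Trp63 was most like Trp53, Zbtb10, Ptpn2, Igfbp3 and Anapc1, at 0.58, 0.57, 0.56, 0.56 and 0.55, and at 0.41, 0.36, 0.41, 0.32 and 0.19 in the deep cells. These genes were picked as the highest of many, and the cells share depth and library.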

How the data were processed

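Ducts and end buds were dissociated, sorted live and processed by SORT-seq with 75 bp paired reads, per the labels' protocols. The submitters' processing notes name BWA 0.6.2-r126 and mm10 without a role. The deposited table holds expected counts of transcripts per gene and well, corrected by the authors for molecules sharing a tag: of 533078 values above 0, 533073 lay on the scale of 256 tags within 1e-06. Strand use in counting is not given in the sources used here.

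Counts were rounded to whole numbers. The 81 spike-in rows and the 8 genes of the class rule were left out of the tests. Library totals ran from 101158 to 598625 transcripts. No doublet caller was run, and 6 kept cells held 10 or more transcripts of both triplets. Sums of at least 5 basal or luminal cells, or 3 hormone-sensing or secretory cells, were tested in edgeR 4.0.16 (R 4.3.3; TMM, filterByExpr, quasi-likelihood), with the library as a block between the luminal classes. DESeq2 1.42.0 was an alternative. Each SE was taken as the log2 change divided by the square root of edgeR's F statistic. The fits were tried on simulated data, of which no outcome is given here, so this adds no support to the p-values. Python 3.11.15 and SciPy 1.17.1 gave shares and correlations. Promoters are from RefSeq (GRCm38.p6), and 3 of the 6 genes matched.

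The members and lists were chosen with earlier results of these data known. Named from each list were up to 4 passing genes with the largest change and up to 2 others with the highest level. For likeness, the 3 most correlated genes over sums and the 5 over basal cells were named. Csn2, a marker of the rule's checks, had no row among the measured genes and could not be used.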

Additional observations from a re-analysis of the deposited data

Results flagged for a closer look

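Transcripts of the 6 factors were also found in wells that no comparison used, above the 3 transcripts that a count of 0 allows. In the 579 wells with under 500 transcripts, which were not taken as cells, there were 58 Sox9, 50 Sox10, 14 Runx1, 6 Trp63, 5 Xbp1 and 4 Sox11 transcripts. These are 6.97, 6.01, 1.68, 0.721, 0.601 and 0.481 per 10000 of the transcripts in those wells. All 6 Trp63 and all 4 Sox11 transcripts were in libraries 2 and 4, the libraries that hold the basal cells. Of the 50 Sox10 transcripts, 29 were in libraries 2 and 4 and 21 in libraries 1 and 3. The Sox10 level of these wells, taken over all libraries, was above the means of hormone-sensing and basal cells, at 0.302 and 3.61 per 10000. It was below the secretory mean of 6.21.

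In the 68 wells with at least 500 and under 1500 transcripts there were 30 Sox9, 18 Sox10, 7 Xbp1 and 5 Runx1 transcripts, and no Trp63 or Sox11. In the 6 cells whose triplets tied, all led by another marker list, there were 9 Sox10 transcripts, and 7 of them were in plate 1 library 2. Across 14 groups of 4 libraries looked at for a value far from the rest, none was found, where chance gives about 1 in 20. Hormone-sensing cells, with 3 libraries, were not looked at in this way. Their Sox9 level was 12.6 and 2.81 per 10000 in libraries 1 and 3 of plate 2 and 12.8 in library 3 of plate 1.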

How the results depend on the processing

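Trp63 and Sox11, at 0 in all luminal sums and so bound to differ where they passed the filter, were called in each alternative that tested them against luminal, hormone-sensing or secretory cells. Against secretory cells these were 11 alternatives for Trp63 and 8 for Sox11. Sox10 was called against hormone-sensing cells in all 10. No called factor changed sign in any alternative run. Of all values recomputed for single factors and for shares, 329 stayed on their side, 10 came to pass, 16 no longer passed and 5 shares moved, such as those thinned to 1500 transcripts. The 329 include all values of Trp63 and Sox11 between classes, which were bound to differ, so this count does not measure how firm the other results are. The count of genes called between basal and luminal cells was 498 and became 1512 with no filter on low counts, 28 of only 209 tested with cells thinned, 935 with sums of at least 10 cells, 938 on plate 2 alone, 147 on plate 1 alone and 832 without cells led by another list, or 537 when 3 cells sufficed, which was chosen after seeing the data. Leaving out a library gave 424 to 840, the highest without plate 1 library 2. Between hormone-sensing and secretory cells 235 became 98 with cells of 3000 or more transcripts, 15 with cells thinned, and 9 to 117 without a library, the lowest without plate 2 library 1. Against hormone-sensing and secretory cells, 628 and 298 became 21 and 26 with cells thinned, and 422 to 791 and 249 to 524 without a library. In basal cells between plates, 0 became 21 by DESeq2, 170 with no filter, 83 without cells led by another list and 34 to 852 without a library, the highest without plate 1 library 4. There the lone library was assumed to vary like the others, and Sox9 and Runx1 passed. With library number as a replicate block the count was 18. Library 2 of the plates did not deviate together (correlation -0.0157), and the labels tie no number to an animal or batch. No paired analysis was possible between basal and luminal cells because no library held at least 3 cells of both. The test of whether the basal change differed between plates was also chosen after seeing the data. With no filter, Runx1 passed between plates. The causes of these shifts were not tested, apart from the fewer genes tested with thinned cells. Depth limits the low counts, such as the 9 Trp63 transcripts of basal cells in plate 1 library 2 and the 4 Xbp1 transcripts of secretory cells in plate 2 library 1. The Sox11 bounds without a library were added after seeing the data.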
